A study of Mus musculus with 5 samples.

Results

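The genes described here are 8 markers of the neurons and glia that reach the airway and gut wall from the neural crest: Phox2a, Ret, Dbh, Sox10, Tubb3, Gap43, Ngfr and Elavl4. They were taken by symbol from the deposited FPKM table, in which all 8 were found among 19699 entries. FPKM scales the fragments of a gene by its length and by the reads of the library, so levels can be set side by side between genes. The libraries were bulk RNA-seq of the main airways, trachea and lung included, from C57 mouse embryos at E13.5. The mutant embryos, called MU, are given as a Prmt5 knockdown in the genotype labels and as a knockout of Prmt5 in the lung epithelium in the protocol, and the design text names Shh beside Prmt5 for them. MU had 2 libraries, and the control littermates, labelled WT with no further allele given, had 3. What drives the deletion is not given beyond the name Shh, so a difference between MU and WT cannot be read as an effect of Prmt5 alone. The labels leave unsaid if a library came from a single embryo or a pool. Each WT library held both Y-linked RNA and Xist, as tissue pooled from embryos of both sexes would, while MU held little Xist. With the number of embryos per library unknown, a p-value here rests on the spread between libraries alone, part of which may be technical.

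Neural crest cells are migrating cells of the embryo that leave the dorsal neural tube. Some enter the foregut, follow the budding trachea and lung, and form ganglia and nerve fibres along the smooth muscle of the airways, with glial cells beside them. Autonomic neurons of this origin are specified by homeobox factors such as Phox2a, depend on the receptor Ret and its ligands for migration and survival, and in part make noradrenaline, while Sox10 keeps the progenitors and later the glia.

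The library totals that FPKM divides by, worked out from the FPKM values, were 15756526 and 15652503 reads in MU replicates 1 and 2. In WT replicates 1, 2 and 3 they were 18682463, 16305922 and 18219269 reads. The reads recovered for the listed genes came to 97.5% to 97.6% of these totals. Prmt5 itself was at 23.7 and 20.1 FPKM in MU, against 28.7, 26.4 and 25.8 FPKM in WT, a log2 change of -0.29 (SE 0.12) short of the threshold (limma adjusted p = 0.234). Shh, named in the design text, fell (log2 change -1.21, SE 0.22, limma adjusted p = 0.0416), at 2.47 and 3.14 FPKM in MU, against 10.5, 7.50 and 5.88 FPKM in WT. The tissue also holds cells outside the epithelium, so Prmt5 in the whole piece checks the labels only in part. The sex make-up of the libraries moved with genotype: the summed FPKM of 4 Y-linked genes was 31.5 and 27.1 in MU, against 23.0, 18.9 and 4.49 in WT, and Xist was at 0.0673 and 0.289 FPKM in MU, against 57.3, 58.1 and 115 FPKM in WT.

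The comparison asked whether RNA of airway neurons and glia differed between the embryos labelled as Prmt5 mutants and their littermates. All 8 genes were lower in MU than in WT in mean level, with a ratio of MU to WT of 0.712 for Sox10 to 0.306 for Dbh. Ret, Ngfr, Dbh and Tubb3 fell past the threshold of the test, an adjusted p of 0.05 with limma over the 12838 genes tested, and Gap43, Elavl4, Phox2a and Sox10 did not. That is 4 of 8, where 1.37% of all genes tested were called lower, 0.989% higher and 2.36% in either direction. Of these 4, Dbh was admitted to the test by its WT level, and none of the 4 passed when no filter was set. For 7 of the 8, both MU libraries lay below all 3 WT libraries, which held for 24.4% of all genes tested, while 13.2% had both MU libraries above all WT libraries. The 8 genes had a median log2 change of -0.73, against -0.06 for all genes tested. In a bulk sample, fewer cells of a type and less RNA per cell cannot be told apart.

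**Figure D1:**
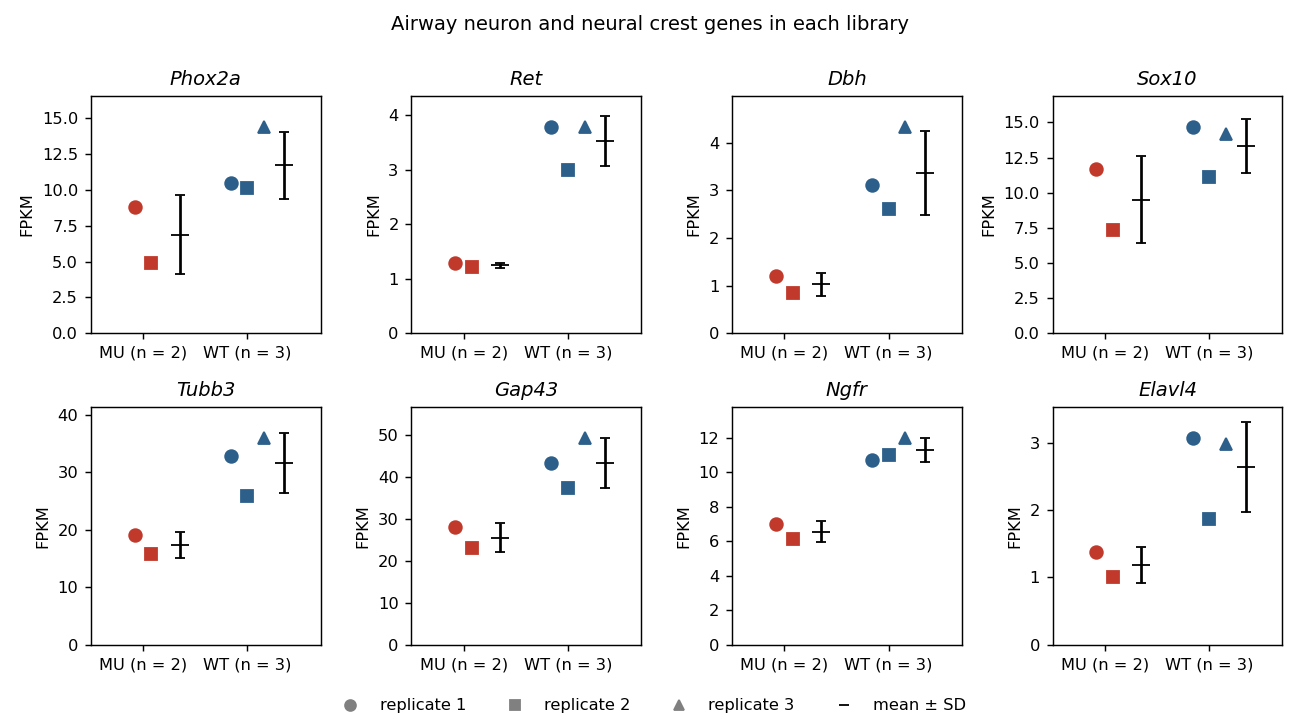
FPKM (linear axis from 0) of the 8 genes in each library, with MU left of WT, 1 symbol per replicate, and the mean with its SD beside the points. MU lies wholly below WT in every panel except that of Sox10, where MU replicate 1 at 11.7 FPKM exceeds WT replicate 2 at 11.1 FPKM.

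The noradrenaline enzyme gene showed the greatest fall of the 8. Dbh (chromosome 2, 27165233 to 27183200, plus strand, GRCm38) encodes dopamine beta-hydroxylase, which makes noradrenaline from dopamine. It was at 1.20 and 0.854 FPKM in MU, from 51 and 36 reads, against 3.12, 2.62 and 4.34 FPKM in WT, from 157, 115 and 213 reads. The highest MU library was thus under the lowest WT library by more than the range of the MU values. The log2 change was -1.09 (SE 0.20, limma adjusted p = 0.0433); like all log2 changes here it is of log2(FPKM + 1), a scale on which weakly expressed genes change by less than their true fold. Dbh was the least abundant of the 8 genes in MU, and only 1 of its MU libraries reached the minimum of 1 FPKM, so it was tested through its WT level. Elavl4 was also tested through its WT level, with 1 MU library at the minimum.

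The receptors Ret and Ngfr fell with little spread within MU. Ret (chromosome 6, 118151745 to 118197718, minus strand), the receptor tyrosine kinase for ligands of the GDNF family, was at 1.29 and 1.22 FPKM in MU, from 137 and 129 reads, against 3.79, 2.99 and 3.78 FPKM in WT, from 479, 330 and 466 reads. Its mean in MU was 0.356 of that in WT, at 1.25 ± 0.0474 FPKM (SD, n = 2) against 3.52 ± 0.458 FPKM (SD, n = 3). The log2 change was -1.0 (SE 0.15, limma adjusted p = 0.0254). Ngfr (chromosome 11, 95568818 to 95587735, minus strand) encodes p75, the low-affinity neurotrophin receptor of crest cells, glia and some neurons, and is also made by mesenchyme and basal cells. It was at 6.98 and 6.14 FPKM in MU, against 10.7, 11.0 and 12.0 FPKM in WT. The WT libraries of Ngfr differed by less, relative to their mean, than those of any other of the 8 genes. The log2 change was -0.70 (SE 0.12, limma adjusted p = 0.0313).

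Among the structural genes of neurons, Tubb3 passed and Gap43 missed the threshold narrowly. Tubb3 (chromosome 8, 123411424 to 123422015, plus strand) encodes the beta-tubulin of neurons. It was at 19.0 and 15.7 FPKM in MU, against 32.8, 25.9 and 36.0 FPKM in WT. The log2 change was -0.82 (SE 0.16, limma adjusted p = 0.0485). Tubb3 shares much of its sequence with Tubb2a and Tubb2b, which averaged 39.8 ± 2.83 and 42.7 ± 3.06 FPKM in MU (SD, n = 2), against 51.1 ± 2.71 and 65.2 ± 7.19 FPKM in WT (SD, n = 3), and how shared reads were counted is not given in the sources used here. Gap43 (chromosome 16, 42248442 to 42340651, minus strand), which encodes a protein of growing axons, was the most abundant of the 8 genes. It was at 28.0 and 23.0 FPKM in MU, against 43.3, 37.3 and 49.3 FPKM in WT. Its groups did not overlap, and the log2 change was -0.74 (SE 0.15, limma adjusted p = 0.0517).

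Elavl4 and the 2 transcription factor genes did not pass. Elavl4 (chromosome 4, 110203722 to 110351909, minus strand) encodes HuD, an RNA-binding protein of neurons. It was at 1.37 and 0.996 FPKM in MU, against 3.07, 1.87 and 2.98 FPKM in WT, with a log2 change of -0.73 (SE 0.20, limma adjusted p = 0.116). Phox2a (chromosome 7, 101818313 to 101822726, plus strand), a homeobox factor of autonomic neurons that acts upstream of Dbh, was at 8.80 and 4.92 FPKM in MU, against 10.5, 10.1 and 14.4 FPKM in WT. The MU libraries of Phox2a were farther apart than the gap between the groups, and its log2 change was -0.72 (SE 0.23, limma adjusted p = 0.159). Phox2a shares 95 exon bases with Inppl1 on the opposite strand, and reads there cannot be assigned without strand. Sox10 (chromosome 15, 79154908 to 79165240, minus strand), a factor of crest progenitors and glia, was at 11.7 and 7.32 FPKM in MU, against 14.7, 11.1 and 14.2 FPKM in WT. Its groups overlapped, and its log2 change was the smallest of the 8, at -0.47 (SE 0.20, limma adjusted p = 0.261).

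The direction of the 8 genes was negative in all 16 alternative settings, but calls depended on the setting. With either MU library left out, the lone MU library is assumed to vary as the WT libraries do. No call is read from those 2 fits. The log2 changes of the 8 genes were -1.21 to -0.78 without MU replicate 1 and -0.98 to -0.17 without MU replicate 2. Ret and Ngfr passed without WT replicate 1, Ret and Tubb3 without WT replicate 2, and none without WT replicate 3. In that last setting 7 of 8 had an unadjusted limma p under 0.05, and so had 1874 of the 12838 genes tested. None passed with limma without a filter on low values, with conversion to TPM or with a covariate for the Y-linked signal. An unadjusted limma p under 0.05 was reached by 7, 4 and 5 of 8, and by 2906, 625 and 1369 of all genes in those fits. The Y-linked covariate left 0.273% of all genes called lower. With voom on the recovered reads 5 passed, the fifth being Gap43, where 2.80% of all genes were called lower. The log2 changes of Ret, Ngfr, Dbh and Tubb3 were -0.95, -0.61, -0.80 and -0.68 with the Y-linked covariate, and -1.62, -1.27, -1.72 and -1.40 with TPM, where the median of all genes was -0.59. Leaving off the filter changes no fold.

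The order of the libraries was much the same for all 8 genes. MU replicate 2 was below MU replicate 1 for 8 of 8, which held for 70.7% of all genes tested. Among the WT libraries, replicate 2 was the lowest for 7 of the 8 and replicate 3 the highest for 5. Over the tested genes, the median difference from the WT mean on the log2 scale was 0.00 in MU replicate 1 and -0.12 in MU replicate 2, against -0.61 and -0.91 for the 8 genes.

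**Figure D2:**
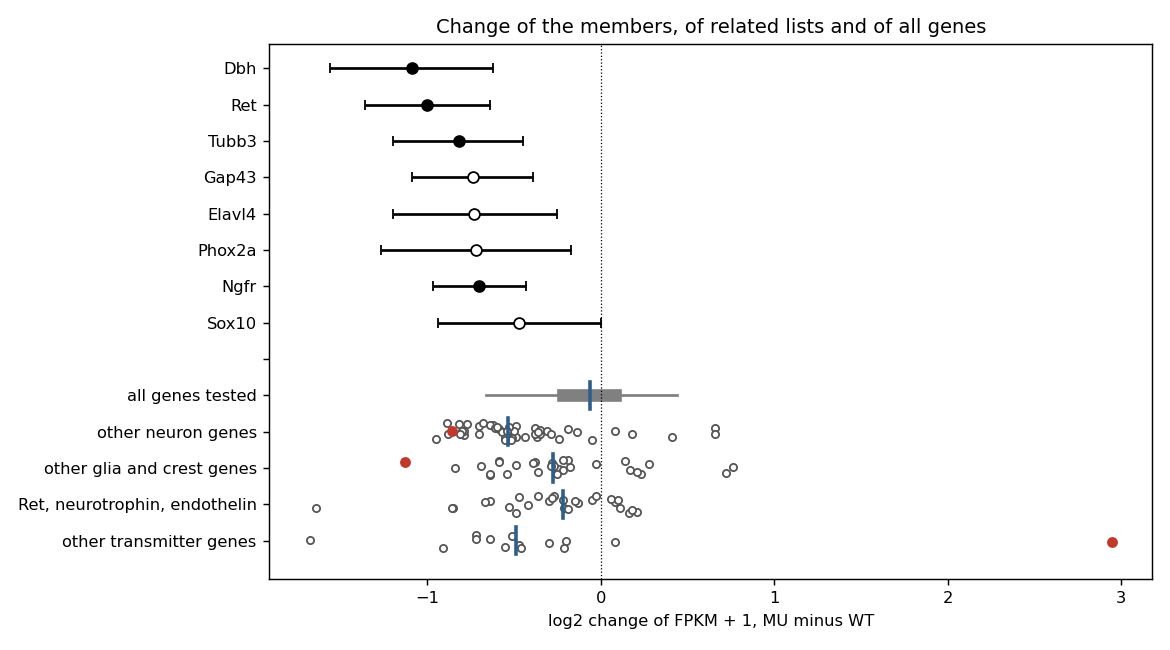
Log2 change of FPKM + 1, MU minus WT (linear axis), for the 8 genes with 95% intervals (filled where the limma adjusted p was under 0.05), for each tested gene of 4 related lists (red where past the threshold, blue bar at the median), and for all genes tested (box for the middle 50%, line for the middle 90%). The 8 genes lie between -1.09 and -0.47, and the other neuron genes have a median of -0.54, against -0.06 for all genes.

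Upstream sequence was matched in RefSeq (build GRCm38.p6) for 5 of the 8 genes. All 5 had both MU libraries below all WT libraries, as had 7 of the 8 genes and 24.4% of all genes tested. The windows of Phox2a, Tubb3 and Ngfr are shown for their shared base composition alone. Over the 250 bases before the RefSeq start, 70.4%, 68.0% and 70.4% were G or C, against a median of 52.4% over 32851 windows. Only bases before the start in both RefSeq and GENCODE M21 are printed, 5′ to 3′ on the gene's strand, and capitals mark GGGCGG or its reverse complement, the core of the GC box.
Phox2a, chr7:101818063-101818312, plus strand: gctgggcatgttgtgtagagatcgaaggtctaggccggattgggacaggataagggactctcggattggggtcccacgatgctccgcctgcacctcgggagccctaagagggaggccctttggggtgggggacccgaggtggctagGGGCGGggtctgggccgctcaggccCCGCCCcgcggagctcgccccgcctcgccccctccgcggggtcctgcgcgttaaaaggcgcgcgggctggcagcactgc
Tubb3, chr8:123411303-123411423, plus strand: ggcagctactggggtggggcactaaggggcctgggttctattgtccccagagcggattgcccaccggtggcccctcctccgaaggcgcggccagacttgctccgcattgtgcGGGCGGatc
Ngfr, chr11:95587736-95587948, minus strand: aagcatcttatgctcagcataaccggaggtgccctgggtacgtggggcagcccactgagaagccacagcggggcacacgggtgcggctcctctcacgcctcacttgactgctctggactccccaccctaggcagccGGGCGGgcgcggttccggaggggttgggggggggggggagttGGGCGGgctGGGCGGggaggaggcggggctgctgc
GGGCGG was found on either strand in the windows of these 3 of the 5 genes, and in 32.7% of all windows. Since the 3 were picked for their share of G and C, a motif of those letters in them is no separate result. The windows of Dbh and Elavl4 did not hold it. TATAAA was in 0 of the 5 genes' windows and in 12.4% of all windows. TGACG, the core of the cyclic AMP response element, was in the windows of Dbh and Elavl4 and in 17.8% of all windows. CAGCTG, an E-box, was in 2 of the 5 and in 13.0% of all windows, and AACAAT, a core bound by Sox factors, in 1 of the 5 and in 9.42%. Each motif was searched on both strands. Elavl4 had several windows and was counted where any of them held the motif, while the share of all windows is per window. CAGCTG was absent from the Elavl4 window before the GENCODE start and present only in windows inside the gene. The Dbh window also lies inside the GENCODE gene. These matches describe letters in a window and say nothing of binding.

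Other neuron genes were mostly lower in MU as well, though 1 alone passed, where 1.37% of all genes tested were called lower. Of 57 further neuron genes 48 were tested, 43 had a log2 change below 0 (61.1% of all genes tested), and for 35 both MU libraries lay below all WT libraries (24.4% of all). Gata3, Insm1, Snap25, Syt1, Chl1 and Chrnb4 were under 1 FPKM in both MU libraries and were admitted to the test by their WT level. Such admission favours a lower MU, and these genes are part of both counts. Celf5 was admitted by its MU level. Uchl1, a ubiquitin hydrolase gene of neurons and neuroendocrine cells, fell (log2 change -0.86, SE 0.12, limma adjusted p = 0.0163), at 29.3 and 25.8 FPKM in MU, against 49.8, 47.8 and 55.5 FPKM in WT. An unadjusted p under 0.05 was reached by 31 of the 48 in the lower direction, against 12.3% of all genes tested, and by 3 in the higher direction, against 6.53%. Voom on the recovered reads called 9 of the 48 lower and 2 higher, where it called 2.80% of all genes tested lower and 1.89% higher.

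Among the factors that specify autonomic neurons, Hand2 and Gata3, factors of noradrenergic neurons, had log2 changes of -0.70 and -0.49 (limma adjusted p = 0.168 and 0.187). Gata3 was admitted to the test by its WT level. Isl1, a LIM homeobox factor of neurons and other tissues, was at 6.54 and 4.89 FPKM in MU, against 13.7, 9.23 and 11.3 FPKM in WT (limma adjusted p = 0.0565).

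Stmn2, a microtubule regulator of growing axons, was at 8.69 and 6.77 FPKM in MU, against 15.7, 11.8 and 14.9 FPKM in WT (log2 change -0.79, limma adjusted p = 0.0525). Prph, the intermediate filament of peripheral neurons, and Elavl3, a relative of Elavl4, had log2 changes of -0.68 and -0.51 (limma adjusted p = 0.0862 and 0.179). The groups of Nefm, a neurofilament gene, overlapped, at 3.33 and 3.34 FPKM in MU, against 5.85, 3.18 and 5.14 FPKM in WT.

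A few neuron genes had higher values in MU. Dcx, a microtubule-binding protein gene of migrating neurons, was at 7.79 and 6.93 FPKM in MU, against 3.88, 4.21 and 4.82 FPKM in WT (log2 change 0.66, SE 0.13, limma adjusted p = 0.0516). Of the 48 tested, 3 had both MU libraries above all WT libraries, which held for 13.2% of all genes tested. They were Dcx, Rtn1 and Celf5, and the last 2 are named because of their values. Rtn1, a reticulon gene, and Celf5, an RNA-binding protein gene, had log2 changes of 0.41 and 0.66 (limma adjusted p = 0.201 and 0.162).

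**Figure D3:**
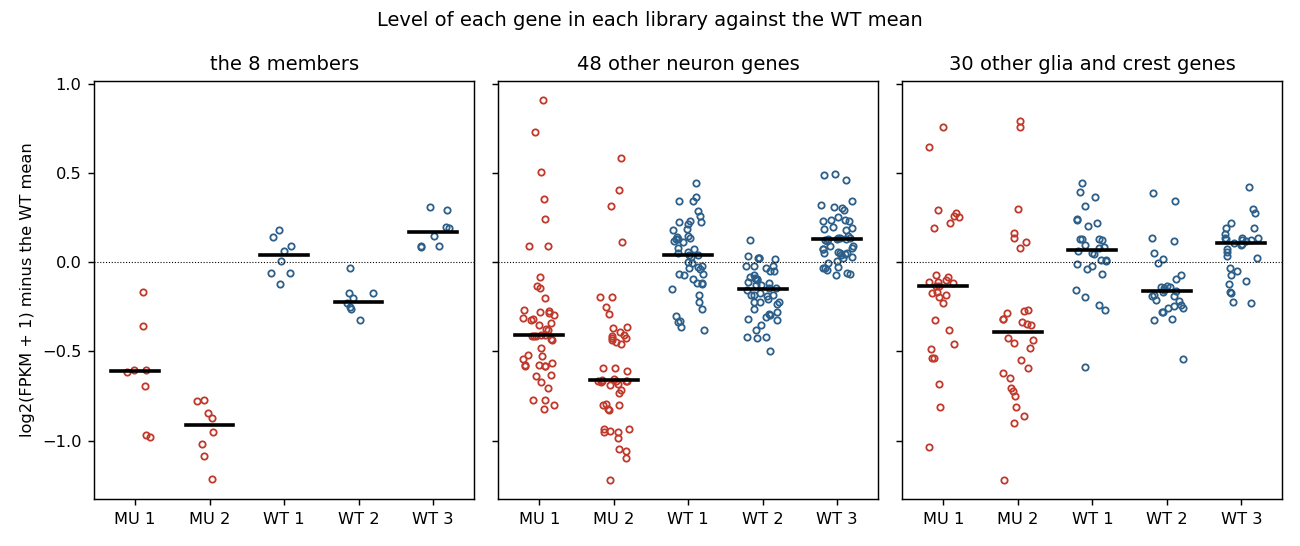
Level of each tested gene as log2(FPKM + 1) minus its WT mean (linear axis), per library with MU left of WT, for the 8 genes, 48 other neuron genes and 30 other glia and crest genes, with a bar at the median. The medians in MU replicates 1 and 2 are -0.61 and -0.91 for the 8 genes, -0.41 and -0.66 for the neuron genes and -0.13 and -0.39 for the glia and crest genes.

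Glia and crest genes other than Sox10 and Ngfr were mostly lower in sign, with 1 past the threshold, where 1.37% of all genes tested were called lower. Of 38 in the list 30 were tested, 23 had a log2 change below 0 (61.1% of all genes tested), for 11 both MU libraries lay below all WT libraries (24.4% of all), and for 5 both lay above (13.2% of all). Their median log2 change was -0.27. Cdh19, like Sox8 below, was admitted to the test by its WT level, and Pou3f1 by its MU level. The 1 gene that passed was Twist1, a mesenchyme factor that cranial crest cells also use, which fell (log2 change -1.13, SE 0.21, limma adjusted p = 0.0419). Twist1 was at 6.48 and 5.57 FPKM in MU, against 11.8, 12.8 and 19.5 FPKM in WT, and it lost the call in 6 of the 11 alternatives that kept all libraries, median ratio scaling and quantile normalization among them. Erbb3, the neuregulin receptor of glia, and Foxd3, a crest factor, had overlapping groups and log2 changes of -0.28 and -0.49 (limma adjusted p = 0.565 and 0.437). Sox8, a relative of Sox10, was at 0.794 and 0.738 FPKM in MU, against 2.37, 1.53 and 2.68 FPKM in WT (limma adjusted p = 0.0826), and was admitted to the test by its WT level. Postn, a matrix protein gene of mesenchyme and Schwann cell precursors, had a log2 change of -0.69, and Pou3f1, a Schwann cell factor, of 0.76 (limma adjusted p = 0.0662 and 0.082).

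None of the 27 tested genes of Ret, neurotrophin and endothelin signalling passed with limma, where 2.36% of all genes tested did. Of the 27, 9 had an unadjusted limma p under 0.05, all lower (12.3% of all genes tested), and voom called 3 lower (2.80% of all). Ntrk3, 1 of these 9, was admitted to the test by its WT level. Gfra1, the co-receptor that presents GDNF to Ret, was at 6.33 and 3.99 FPKM in MU, against 28.5, 11.5 and 17.2 FPKM in WT. The groups of Gfra1 did not overlap, but its WT libraries varied widely, with a log2 change of -1.64 (SE 0.34, limma adjusted p = 0.0567). Gfra2, the co-receptor for neurturin, was at 21.7 and 14.5 FPKM in MU, against 18.5, 14.6 and 17.4 FPKM in WT (limma adjusted p = 0.869). Gfra3, the co-receptor for artemin, had a log2 change of -0.64 (limma adjusted p = 0.121). Gdnf itself was near the limit of detection, with 10 reads in MU and 28 in WT, and was not tested.

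Of the neurotrophin receptors, Ntrk2, the receptor for BDNF, was at 2.48 and 2.02 FPKM in MU, against 5.20, 3.92 and 5.71 FPKM in WT (log2 change -0.86, SE 0.17, limma adjusted p = 0.0516). Ntf5, which encodes neurotrophin 4, and Dok5, an adaptor of Ret and Trk receptors, had log2 changes of -0.85 and -0.67 (limma adjusted p = 0.108 and 0.0859).

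Of 24 genes of transmitter synthesis and transport and of neuropeptides, 14 were tested, 12 of them with a log2 change below 0 (61.1% of all genes tested). Th, Slc18a2, Gch1, Slc5a7 and Ache, all among those 12, were under 1 FPKM in both MU libraries. They were admitted to the test by their WT level, which favours a lower MU. Beside Dbh, the noradrenergic gene Th, which encodes tyrosine hydroxylase, had overlapping groups, at 0.940 and 0.486 FPKM in MU, against 1.02, 0.441 and 1.60 FPKM in WT (log2 change -0.21, limma adjusted p = 0.761). Ache, the acetylcholinesterase gene, and Slc6a15, an amino acid transporter gene of neurons, had log2 changes of -0.91 and -0.72 (limma adjusted p = 0.082 and 0.0925). Penk, the enkephalin precursor gene, was at 7.65 and 5.59 FPKM in MU, against 40.3, 19.9 and 15.3 FPKM in WT (limma adjusted p = 0.06). Chat, Vip and Nos1, genes of cholinergic, peptidergic and nitrergic neurons, were too low to test, with 10, 11 and 46 reads in MU, against 36, 36 and 127 in WT. The 1 transmitter list gene that passed was higher, where 0.989% of all genes tested were called higher. Calb2, which encodes calretinin of some enteric neurons and of mesothelium, was at 29.0 and 24.3 FPKM in MU, against 1.5, 4.42 and 2.38 FPKM in WT (log2 change 2.95, SE 0.29, limma adjusted p = 0.00691).

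Markers of other cell types moved with genotype too, and their part in the falls of the 8 genes was not tested. The 4 skeletal muscle markers were all lower, 3 of them past the threshold, where 1.37% of all genes tested were called lower. Their summed levels were 60.8 and 138 FPKM in MU, against 218 to 611 FPKM in WT. Most of each sum was Actc1, at 56.1 and 128 FPKM in MU, against 269, 177 and 570 FPKM in WT. Actc1 was the marker that did not pass (limma adjusted p = 0.112). Of the 4 smooth muscle markers 3 were tested and 3 were lower with 0 past the threshold, with sums of 171 and 136 FPKM in MU, against 221 to 356 FPKM in WT. Of the 4 epithelial markers 3 were lower and 0 passed, with sums of 131 and 130 FPKM in MU, against 143 to 369 FPKM in WT. Of the 8 neuroendocrine markers 6 were tested and 5 were lower, 1 past the threshold, with sums of 8.95 and 6.79 FPKM in MU, against 14.4 to 19.9 FPKM in WT. Resp18, among those lower, was admitted to the test by its WT level. Of the 4 mesothelial markers 3 were higher and 0 passed, with sums of 63.5 and 92.6 FPKM in MU, against 10.9 to 49.2 FPKM in WT. The sums of the 4 endothelial markers overlapped between groups, at 85.3 and 69.0 FPKM in MU, against 67.5 to 94.4 FPKM in WT, and so did those of the 4 heart markers. Of these marker genes, 1 was listed at 0 in any library, the neuroendocrine gene Scg2 in MU replicate 2.

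**Figure D4:**
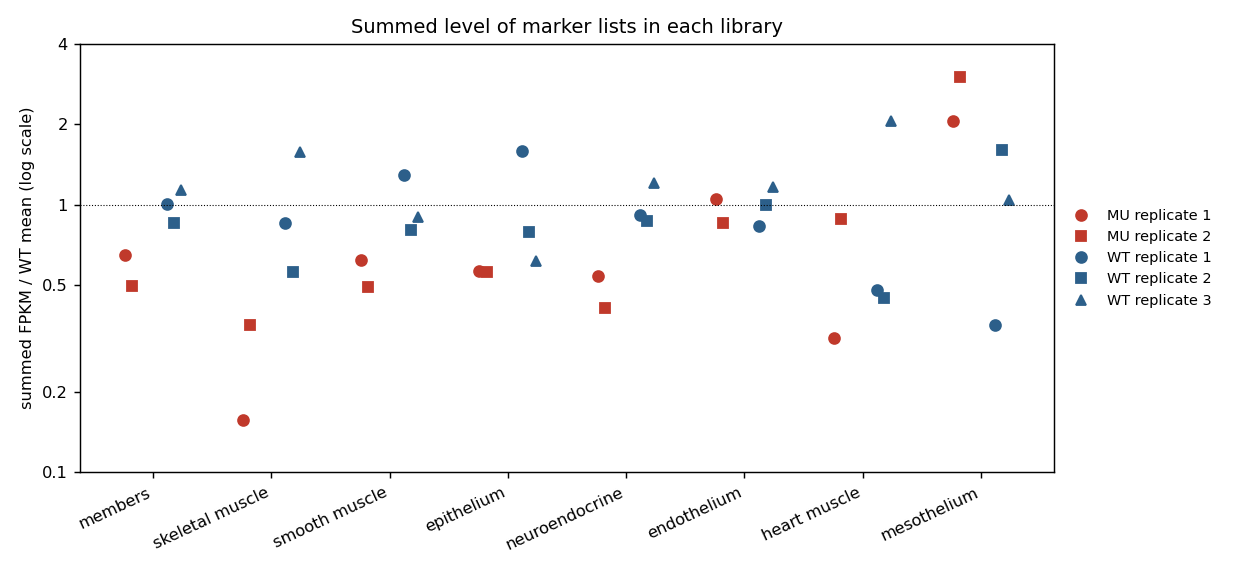
Summed FPKM of the 8 genes and of 7 marker lists in each library, divided by the WT mean (log axis), with MU left of WT. The 8 genes sum to 78.2 and 60.2 FPKM in MU, against 122, 103 and 137 FPKM in WT, and skeletal muscle, smooth muscle, epithelial and neuroendocrine sums are also below WT while the mesothelial sums are above it.

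The label of airway neuron and crest genes was checked against defining markers. Elavl3, Stmn2 and Prph of peripheral neurons and Erbb3, Foxd3 and Fabp7 of glia were at 1 FPKM or more in all 5 libraries. Of the central nervous system markers, Pax6 and Neurod1 were at 0.0234 FPKM or less in each library. These markers cover the central nervous system only in part. The sensory ganglion markers Pou4f1 and Prdm12 were at 0.231 FPKM or less in each library. Tissue outside nerves can also express Ngfr and Isl1, so a level in the whole piece is not that of neurons and glia alone.

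The genes most like the 8 over the 5 libraries, by Pearson r of log2(FPKM + 1) with the mean of their standardised levels, were named by their rank alone. They were Lmod1, Hes1, Grtp1, Gpr27, Dmtn, Rb1, Cdh19, Zfp397, Rap1gap and Nrsn1, with r of 0.998 or more. Cdh19 is a glial cadherin gene, Nrsn1 encodes neurensin of neurons, Lmod1 is a smooth muscle gene and Hes1 a Notch target. None of these 10 passed with limma, with adjusted p of 0.063 for Nrsn1 to 0.221 for Gpr27. With 5 points that also share the group difference, r is a description only, and 592 of 12830 genes (4.61%) had an r of 0.95 or more, 17 of the 48 other neuron genes tested among them.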

How the data were processed

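RNA of the main airway section of mouse embryos at E13.5 was sequenced in 2 MU and 3 WT libraries, grouped by their titles. The authors deposited 1 table of FPKM values for 19699 gene entries, the unit being that of the table's name. GRCm38 (mm10) is the build in the submitters' processing notes. For the aligner, counter, annotation, filters and strand setting, nothing is stated in the sources used here. Per the labels' protocols, 1.3 ug of total RNA went into each library. The labels' treatment text describes a culture of fat cells and was not used.

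Each FPKM value was a whole multiple of what 1 read is worth (19699 of 19699 entries at a relative tolerance of 1e-10), which gave the reads of each gene and library. The length implied by those steps was that of the merged GENCODE M21 exons for 6 of the 8 genes (not for Phox2a and Sox10). Positions are from GENCODE M21.

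The 12838 genes that reached 1 FPKM in 2 libraries or more were tested, two-sided, on log2(FPKM + 1) with limma 3.58.1 in R 4.3.3 (lmFit and trended eBayes), without covariates. P-values were adjusted over all these genes by Benjamini and Hochberg's method, with a threshold of 0.05. The steps were first tested on simulated reads. An exact permutation test of 2 against 3 libraries cannot go below p = 0.1, so none is given. Voom used the recovered reads. The male share was the summed FPKM of Ddx3y, Eif2s3y, Kdm5d and Uty relative to the highest library.

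The 8 genes, the lists and the rule for named genes were chosen with earlier results of these data known. Some genes are in 2 lists, such as Gfra2, Gfra3, Ednrb, Erbb3, Nrg1 and Isl1. The rule names the 8 genes, the 4 genes with the smallest p of each list, a set of 22 neural genes whatever they show, and the 10 genes most like the 8 over the libraries. Marker lists of other cell types are given as sums. Prmt5, Shh, Inppl1, Xist, Tubb2a, Tubb2b, Rtn1, Celf5, Pax6, Neurod1, Pou4f1, Prdm12, Fabp7, Actc1 and Scg2 are named outside that rule. So are Insm1, Snap25, Syt1, Chl1, Chrnb4, Slc18a2, Gch1, Slc5a7, Ntrk3 and Resp18, for being admitted to the test by their WT level. Olig2 and Grp of the marker lists were not analysed here, and some genes that the rule or the marker lists name are not reported here.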

Additional observations from a re-analysis of the deposited data

How the results depend on the processing

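The 8 genes kept a negative sign in all 16 alternatives, with log2 changes of -1.72 to -0.17. The number of them called, 4 in the main test, was 0 with no filter, TPM, the male share or the replicate block and 2 with quantile normalization, and 0 to 2 with 1 library left out. All genes called, 303, were 69 with no filter, 67 with TPM, 55 with the male share and 603 with voom, and 4 to 284 with 1 library left out. The split of 127 higher and 176 lower became 151 and 140 with median ratio scaling, 133 and 115 with quantile normalization, 10 and 57 with TPM, and 112 and 277 with TPM without Gm23935. With TPM all genes tested had a median change of -0.59, so changes under it are to be read against that shift. Other neuron genes called, 1, were 0 with no filter, TPM and the male share, 2 with median ratio scaling, quantile normalization and no variance trend, 4 with TPM without Gm23935, 11 with voom, and 0 to 5 with 1 library left out. Other glia and crest genes called, 1, were 0 with no filter, median ratio scaling, quantile normalization, TPM and the male share, 2 with TPM without Gm23935, 4 with voom, and 0 to 1 with 1 library left out. Signalling genes called, 0, were 1 with either lower pseudocount, median ratio scaling and the replicate block, 2 with TPM without Gm23935, 3 with voom, and 0 to 2 with 1 library left out. Transmitter genes called, 1, were 0 with no filter, 2 with TPM without Gm23935, the male share and the replicate block, 4 with voom, and 0 to 3 with 1 library left out. Th turned to 0.13 with the male share, and Gfra2 to -0.47 with TPM, -0.20 without MU replicate 1 and -0.01 without WT replicate 2, within a range of -0.20 to 0.36 with 1 library left out. The causes were not tested. The deviations of same-numbered libraries from their group means correlated at -0.07 and 0.02 across genes. The MU deviations mirror each other, so these values are not independent and cannot tell if the replicate numbers pair the libraries. The replicate block called 259 genes in all. Depth limits Gdnf, Chat and Vip, with 10, 10 and 11 reads in MU.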
